A study of Homo sapiens with 2 samples.

Results

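Immediate early genes are transcribed within minutes of a growth factor or stress signal, before any new protein is made. Their promoters are classically driven by serum response factor with its ETS partners, by CREB at cAMP response elements, and by AP-1 itself, and many of their products are transcription factors that switch on a later wave of genes. MYC, a basic helix-loop-helix leucine zipper factor that binds E-box DNA as a dimer with MAX, is itself induced early by the same signals.

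The promoters of 9 such genes were examined for MYC binding: FOS, FOSL2, JUN, JUNB, ATF3, EGR1, KLF6, IER2 and DUSP1. A peak was given to a gene when its summit lay within 5 kb of the gene's GRCh37 start site. ATF3 has 2 start sites, so 10 start sites were used. MYC peaks were found at 9 of 9 genes, 26 peaks among the 17659 of the whole list (0.147%). The share of chromosomes 1 to 22 and X that lay within 5 kb of any summit was 4.63%, which is the background for a position and not for a start site. The start sites of other genes were not analysed here.

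The peaks came from 1 library of MYC ChIP, called against 1 library of input chromatin. Both were from SH-EP/TET21/N (TET21) cells, which derive from SH-EP human neuroblastoma cells and carry a MYCN transgene that doxycycline represses. The cells expressed full-length MYC ectopically. They were kept for 7 days with doxycycline at 1 µg/mL and crosslinked for 10 min in 1% formaldehyde. The antibody was a rabbit polyclonal anti-MYC serum made in the submitters' laboratory, labelled N-262, used at 2 µg. Whether it separates ectopic from endogenous MYC is not given in the sources used here. With 1 library of each kind no value has a replicate error and no test between samples was possible. Intervals below are exact Poisson 95% intervals on the number of ChIP fragments at a summit, the pileup, and cover counting error only. Gene expression was not analysed here, so neither the activity of these genes nor the cell type's markers could be read. The fold, the authors' own value for each peak, is the ChIP pileup over the caller's local background, each plus 1.

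RefSeq promoter windows (GRCh38.p14, 250 bases before to 50 after a start) were at hand for all 9 genes. The canonical E-box, CACGTG, read on both strands, was in those of DUSP1 and KLF6, 2 of 10 windows, against 7.26% of 35116 promoter windows of the same length. Its first base lay at -108 from the RefSeq start in DUSP1 and at -97 in KLF6. The looser E-box CANNTG, which takes in CACGTG, was in 6 of the 10 windows, from 6 of the 9 genes, and in 68.7% of all windows. The CArG box, the site of serum response factor, was in the window of EGR1 alone (1.29% of all windows), and the cAMP response element TGACGTCA in that of DUSP1 alone (1.85%). Sites more than 250 bases before a RefSeq start were outside the windows, so a gene without a match here may have one farther out. FOSL2 alone had the AP-1 site TGANTCA (7.71%), and the TATA box TATAAA was in windows of FOS, JUNB, ATF3 and DUSP1 (11.5%). For ATF3, TATAAA was only in the downstream of its 2 windows and CANNTG only in the upstream one. No marked motif overlaps another in the windows printed here. Windows are shown for the 2 genes with CACGTG, for FOSL2, the gene with the strongest peak, which has no CACGTG here, and for EGR1, whose nearest summit lay farther from its start than that of any of the other 8 genes. Capitals mark matches to the motifs named above other than CANNTG.
DUSP1: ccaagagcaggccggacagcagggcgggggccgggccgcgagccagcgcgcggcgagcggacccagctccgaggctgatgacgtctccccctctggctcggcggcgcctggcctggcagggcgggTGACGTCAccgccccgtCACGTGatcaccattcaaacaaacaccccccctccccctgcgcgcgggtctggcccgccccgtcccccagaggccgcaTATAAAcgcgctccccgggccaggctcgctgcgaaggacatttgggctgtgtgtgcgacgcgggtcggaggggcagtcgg
KLF6: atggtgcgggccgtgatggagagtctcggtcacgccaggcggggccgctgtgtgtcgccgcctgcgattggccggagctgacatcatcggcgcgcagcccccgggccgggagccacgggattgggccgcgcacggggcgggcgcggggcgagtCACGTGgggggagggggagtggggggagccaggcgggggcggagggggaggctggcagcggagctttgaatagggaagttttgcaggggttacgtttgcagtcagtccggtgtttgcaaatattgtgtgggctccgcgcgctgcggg
FOSL2: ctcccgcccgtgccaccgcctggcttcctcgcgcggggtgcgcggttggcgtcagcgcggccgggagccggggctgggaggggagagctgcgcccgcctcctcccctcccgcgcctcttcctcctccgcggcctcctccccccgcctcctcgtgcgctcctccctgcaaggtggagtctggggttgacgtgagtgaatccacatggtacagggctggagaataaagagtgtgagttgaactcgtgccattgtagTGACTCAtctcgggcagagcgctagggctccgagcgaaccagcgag
EGR1: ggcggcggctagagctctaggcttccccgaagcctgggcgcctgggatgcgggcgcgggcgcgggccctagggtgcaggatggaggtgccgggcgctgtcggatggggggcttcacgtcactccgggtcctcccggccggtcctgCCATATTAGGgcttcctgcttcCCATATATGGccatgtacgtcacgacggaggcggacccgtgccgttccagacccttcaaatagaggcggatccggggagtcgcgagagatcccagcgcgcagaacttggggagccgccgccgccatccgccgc
These letters come from another build than the peaks, and the RefSeq starts need not be the GRCh37 starts used for the distances, so no summit was placed on them. For ATF3 the windows start 49611 bp apart in RefSeq and the GRCh37 start sites 43336 bp apart, so at least 1 of its windows is not at a start site used here. A match is a string of letters and not a bound site.

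MYC summits lay close to the start sites. The summit nearest its start was within 100 bp for 3 genes (FOSL2, JUNB and IER2), within 200 bp for 6, within 500 bp for 8 and within 600 bp for all 9. Over the 10 start sites there were 9 summits in the first 0.5 kb on either side (0.9 per kb), 3 from 0.5 to 1 kb, 8 from 1 to 2 kb (0.4 per kb) and 6 from 2 to 5 kb (0.1 per kb). Beyond the 5 kb that defined membership the density was 0.03 per kb up to 10 kb and 0.035 per kb from 10 to 20 kb, against 0.00601 per kb over chromosomes 1 to 22 and X. In the first 0.5 kb, 7 summits were upstream of the start and 2 downstream. Of all 26 peaks, 15 were upstream and 11 downstream.

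**Figure D1:**
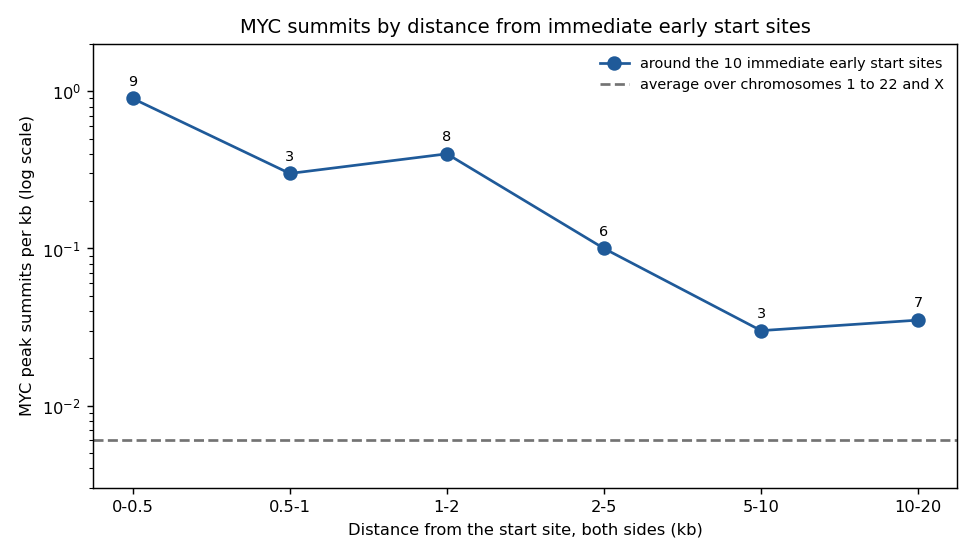
MYC peak summits per kb (log scale) against distance from the 10 immediate early start sites, both sides counted, with the number of summits above each point; the dashed line is the average over chromosomes 1 to 22 and X. The density was 0.9 per kb in the first 0.5 kb and 0.035 per kb at 10 to 20 kb, against an average of 0.00601 per kb.

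The peak farthest inside the 5 kb limit was that of IER2 at +3951 bp, with a fold of 7.53. The nearest outside was at -6396 bp from the upstream start of ATF3, with a fold of 7.48, followed by one at -8549 bp from JUNB with a fold of 8.68 and one at +9815 bp from KLF6 with a fold of 5.65.

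The 5 basic leucine zipper genes, FOS, FOSL2, JUN, JUNB and ATF3, held 13 of the 26 peaks. FOS and JUN families pair to form AP-1, the dimer that reads stress and growth signals into transcription, and ATF3 is a stress-induced factor of the CREB and ATF branch. Their folds ran from 2.88 to 24.6 with a median of 6.51, so the group held both the highest and the lowest fold of the 26 peaks.

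FOSL2, which encodes the FOS-family AP-1 subunit FRA-2, carried the strongest peak. It lay at chr2:28615260-28615833 with its summit at -76 bp, just upstream of the start. The pileup was 45 fragments (95% interval 32.8 to 60.2), the local background 0.872 and the fold 24.6, with a −log10 p of 60.86. It ranked 137 by −log10 p and 102 by fold in the list. A broad peak at -2224 bp (chr2:28613230-28613692, 463 bp wide) had 25 fragments (16.2 to 36.9) over 1.32 and a fold of 11.2, and a small one beside it at -1918 bp had 9 fragments and a fold of 5.51. All 3 peaks of FOSL2 were upstream. In RefSeq order an antisense transcript, FOSL2-AS1, is the neighbour on that side, so the pair at about 2 kb cannot be given to 1 of these genes here.

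FOS, the archetype of the class, had a single peak at chr14:75745062-75745213. The peak was 152 bp wide with a summit at -314 bp, upstream of the start. It rested on 13 fragments (6.92 to 22.2) where the background was 0.815. Its fold of 7.71 was above that of 68.0% of peaks in the list. The next peak was 15.5 kb downstream with a fold of 4.34. FOS thus had fewer peaks than FOSL2 and a lower one at its start: the intervals of their start-site pileups, 6.92 to 22.2 and 32.8 to 60.2 fragments, did not overlap.

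JUN, the principal partner of FOS in AP-1, had 3 peaks. The main one, at chr1:59249872-59250070, had its summit at -189 bp, upstream of the start, with 19 fragments (11.4 to 29.7) over 1.03 and a fold of 9.85. A weaker peak at -1008 bp had 9 fragments and a fold of 5.45; JUN-DT, the noncoding RNA known to be transcribed away from the JUN promoter, is the next gene on that side. The last, at +1693 bp, had 10 fragments over a background of 1.98, and its fold of 3.69 exceeded that of only 301 peaks in the list. Farther along, 28.4 kb beyond the start in the direction of transcription, lay a peak with 30 fragments and a fold of 15.3, a higher value than at any of the 3 peaks near the JUN start.

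JUNB, a JUN-family subunit encoded by a gene without introns, had 4 peaks, and the strongest was not the one at its start. The start-site peak, at chr19:12902020-12902284 with a summit at -93 bp, had 16 fragments (9.15 to 26.0) over 1.32 and a fold of 7.33. The peak at +2639 bp, chr19:12904777-12905083, had 35 fragments (24.4 to 48.7) over the same background and a fold of 15.5, rank 603 by −log10 p. The intervals of these pileups overlap between 24.4 and 26.0 fragments. PRDX2, a peroxiredoxin gene, is the RefSeq neighbour on that side. The upstream peaks at -1152 and -2718 bp had folds of 4.74 and 3.72. The outer of them had 15 fragments, close to the 16 at the start, but over a background of 3.30, which only 1.77% of peaks in the list reached.

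The start sites of ATF3 had unlike peaks. The downstream start had a peak at chr1:212781614-212782119, 506 bp wide with a summit at -185 bp, with 27 fragments (17.8 to 39.3) over 3.30 and a fold of 6.51. The upstream start had none within 1 kb. Its peak, at chr1:212740490-212740638 and +1899 bp, had 19 fragments (11.4 to 29.7) over 5.94 and a fold of 2.88. That fold was above that of only 8 peaks in the whole list, although 19 fragments was also the count at the JUN start, where the background of 1.03 gave a fold of 9.85. Backgrounds of 3.30 and 5.94 equal 5 and 9 input fragments if 1 fragment counts 0.6599. That spacing was inferred from the recovered backgrounds of the whole list and is not a value the caller gave. The median background of the 61 peaks within 5 Mb of ATF3 was 1.32, against 1.12 over the list. The part of this raised background in the low folds was not tested.

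**Figure D2:**
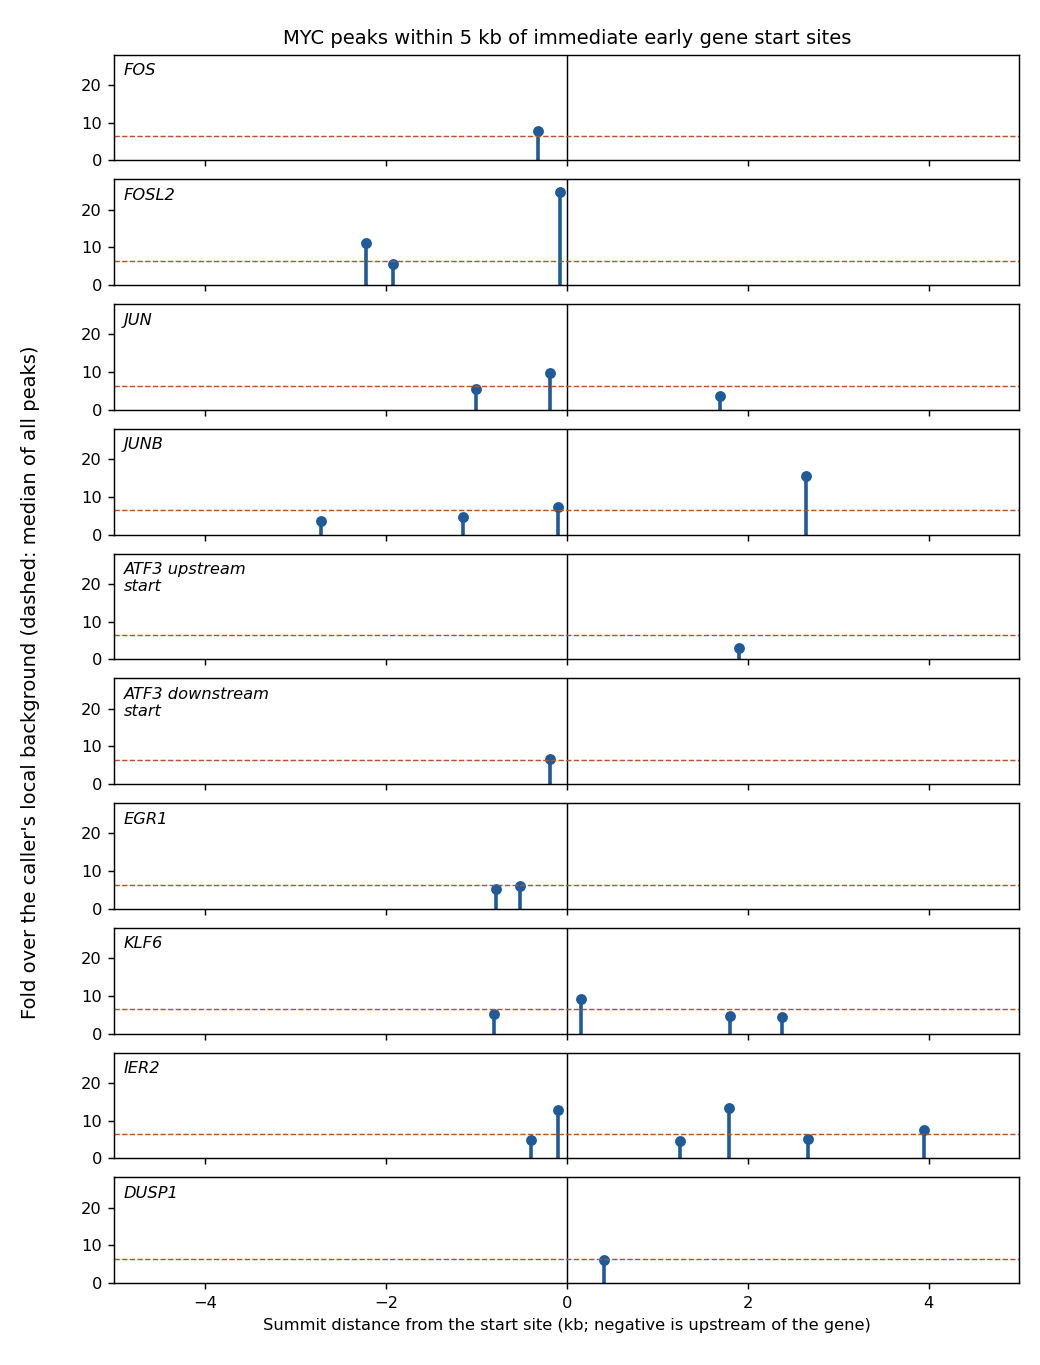
Fold of each MYC peak against the distance of its summit from the start site (kb, negative upstream), 1 panel per start site, with the median fold of the whole list, 6.40, as a dashed line. FOSL2 has the tallest peak at its start (24.6); JUNB and IER2 have their tallest at +2639 and +1792 bp; IER2 has 6 peaks, and FOS and DUSP1 have 1 each.

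The zinc-finger genes EGR1 and KLF6 held 6 peaks, none with a fold as high as 10. EGR1, an early growth response factor and a standard target of serum response factor, had a close pair of weak peaks, both upstream. Their summits lay at -513 bp (chr5:137800538-137800728, 13 fragments, 6.92 to 22.2, over 1.32, fold 6.03) and at -782 bp (chr5:137800289-137800480, 9 fragments, 4.12 to 17.1, over 0.937, fold 5.16). No summit was within 500 bp of the EGR1 start, and neither peak overlapped it. The nearest peak outside the pair was 77.8 kb away.

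KLF6, a Krüppel-like factor also known as a growth suppressor, had 4 peaks. The main one, at chr10:3827150-3827824, spanned the start with a summit at +152 bp and was the widest of the 26, at 675 bp. It had 15 fragments (8.40 to 24.7) over 0.740, the lowest background among the 26 peaks, and a fold of 9.19. The peaks at -803, +1807 and +2376 bp had 11, 10 and 12 fragments and folds of 5.17, 4.74 and 4.36. Their pileup intervals all overlap that of the main peak, so which of the 4 was highest is not settled at this depth.

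IER2, an early-induced gene whose product acts in the nucleus, had the most peaks. Its 6 summits spread from -399 to +3951 bp. A strong peak sat at the start (chr19:13261089-13261362, summit -95 bp, 23 fragments, 14.6 to 34.5, over 0.872, fold 12.8). The strongest lay downstream of it at +1792 bp (chr19:13262873-13263184, 30 fragments, 20.2 to 42.8, over 1.32, fold 13.4). The intervals of these pileups overlap. The peak at +3951 bp had a fold of 7.53, and those at -399, +1250 and +2667 bp had 8, 8 and 9 fragments and folds of 4.76, 4.65 and 5.24. In RefSeq order STX10, a syntaxin gene read from the opposite strand, precedes IER2, so upstream peaks cannot be given to 1 of these genes here. Summed over its peaks IER2 had 93 fragments (75.06 to 113.9), FOSL2 79 (62.55 to 98.46) and JUNB 76 (59.88 to 95.13). These intervals overlap, and a sum grows with the number of peaks, so this order is not settled here. The 6 IER2 summits all lay within 5 kb of one another, so each necessarily had at least 6 summits within 5 kb, itself included. They are 1 cluster counted at each of its peaks and not 6 separate results. In the list 0.617% of peaks had that many.

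DUSP1, the phosphatase that switches off MAP kinases and so closes the early response, had a single peak, downstream of its start. It lay at chr5:172197720-172197888 with a summit at +414 bp, and had 13 fragments (6.92 to 22.2) over 1.32 and a fold of 6.03, the same values as the stronger EGR1 peak. It was the only peak within 50 kb of the DUSP1 start; the next was 63.2 kb upstream. DUSP1 and KLF6, whose RefSeq windows hold CACGTG, were also the 2 genes whose nearest summit lay downstream of the start. CACGTG lay upstream of the RefSeq start in both, and no summit was placed on the windows. A link between these features was not tested. The folds of DUSP1 and KLF6 nearest the start were 6.03 and 9.19. Those of the 7 genes whose RefSeq windows lack CACGTG ran from 6.03 at EGR1 to 24.6 at FOSL2. The letters under the summits were not read, and these 7 genes may have CACGTG outside the windows. Whether CACGTG goes with the fold was therefore not tested.

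**Figure D3:**
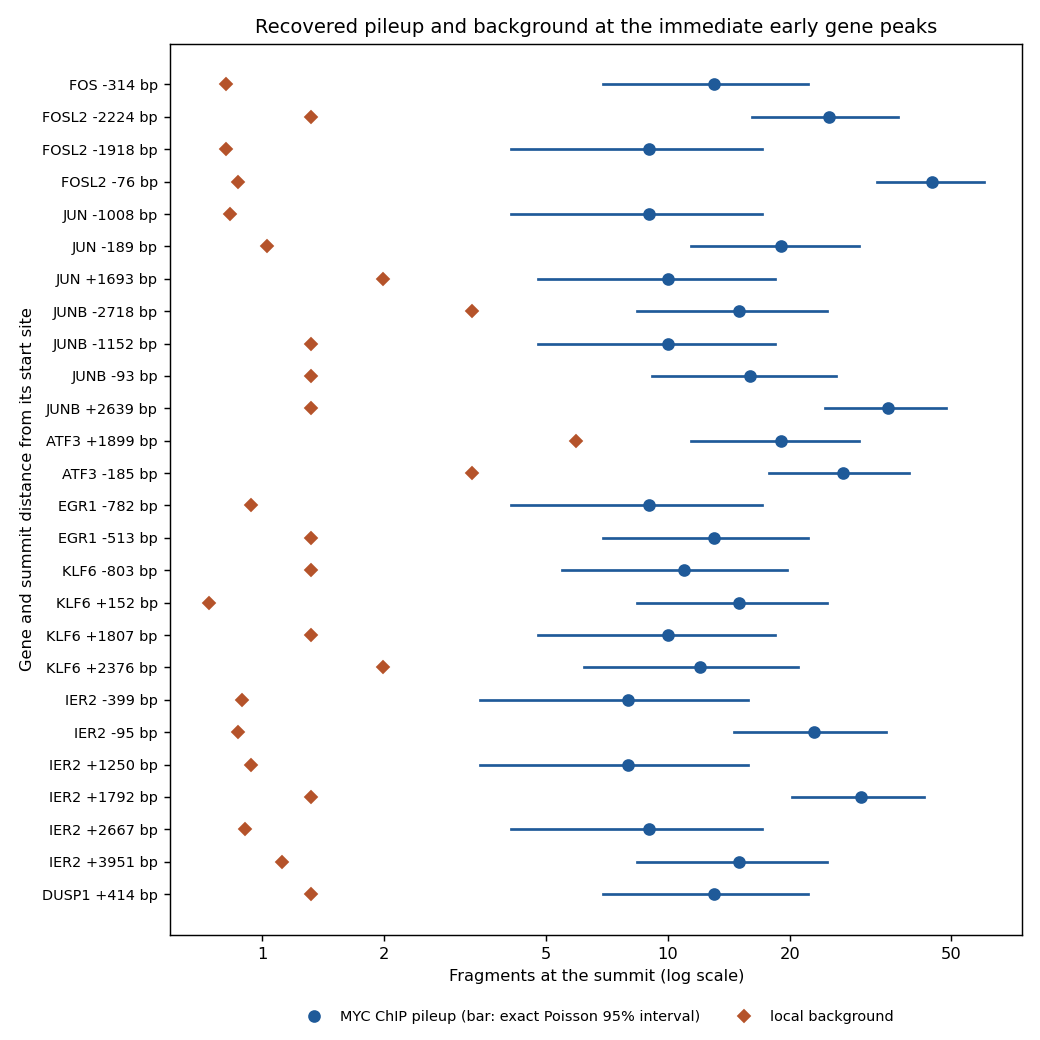
ChIP fragments at each of the 26 summits (circles, with exact Poisson 95% intervals) and the caller's local background (diamonds), on a log scale, labelled by gene and distance from the start. Pileups ran from 8 to 45 fragments; the highest backgrounds, 5.94 and 3.30, were at ATF3 and at the JUNB peak at -2718 bp.

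Among the 9 start-site peaks, FOSL2 had the highest pileup. Of the 36 pairs of genes, the intervals were apart in 6, and FOSL2 was in all 6: its interval overlapped only those of ATF3 and IER2. These 6 pairs share the 1 FOSL2 count, so they are not separate results. Intervals that are apart cover counting error only and are not a test between genes. By fold the order was FOSL2 (24.6), IER2 (12.8), JUN (9.85), KLF6 (9.19), FOS (7.71), JUNB (7.33), ATF3 (6.51), and EGR1 and DUSP1 (6.03 each). For the 8 genes after FOSL2 all pileup intervals overlapped, which is not a test of any pair. The order by fold also depends on the background, which was 0.740 at KLF6 and 3.30 at ATF3. ATF3 had 27 fragments, more than IER2 with 23, but a lower fold. The order of those 8 was not tested by either measure and is not settled here.

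As a group the 26 peaks were of ordinary strength. Their median fold was 5.77 (quartiles 4.75 and 8.82), against 6.40 (5.17 and 8.38) over the whole list, and their median pileup was 13 fragments, against 13. Folds of at least 10 were found at 5 of the 26 (19.2%), from FOSL2, JUNB and IER2, against 15.4% of all peaks, and a fold of at least 20 at 1 (3.85%), against 1.43%. The upper quartile of −log10 p was reached by 8 of the 26 (30.8%), from 6 genes, against 25.1% of the list, and the median of −log10 p by 11 (42.3%), from 7 genes, against 50.3%. A fold above the list's median was held by 11 of the 26 (42.3%), against 49.8%. The peaks nearest the start sites had a median fold of 7.71 (6.03 to 24.6), with 7 of 9 above the list's median, while the other 17 peaks had a median of 5.16, with 4 above it. No peak of the 26 sat at the lowest background of the caller, 0.6832, where 9.97% of all peaks did; their median background was 1.32, against 1.12.

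**Figure D4:**
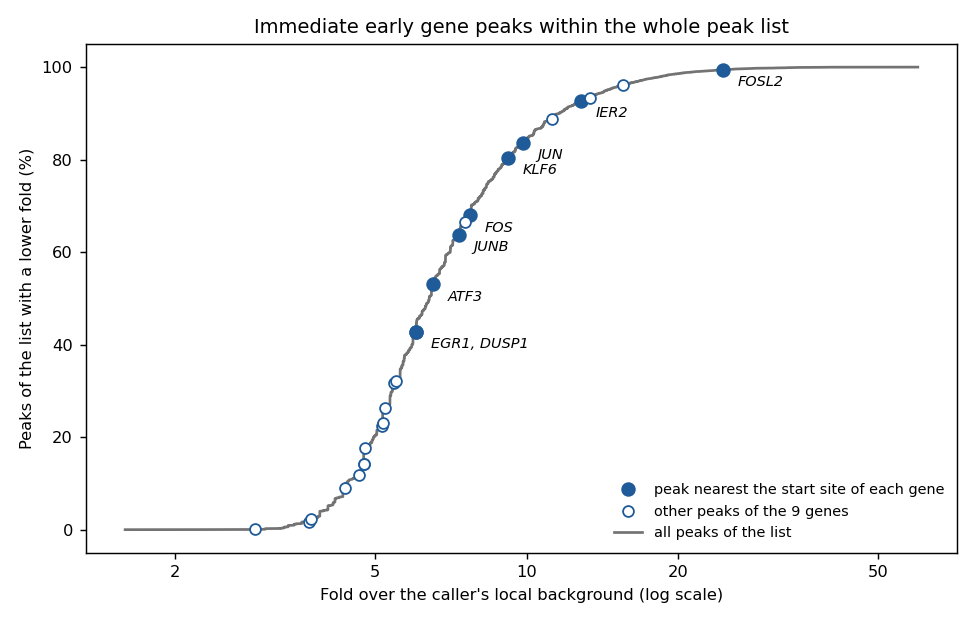
Share of the whole list with a lower fold (percent) against fold (log scale), for the peak nearest the start of each gene (filled circles, named), the other 17 peaks of the 9 genes (open circles) and all peaks (line). The start-site peaks run from EGR1 and DUSP1 at 42.8% to FOSL2 at 99.4%.

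The 26 peaks were crowded. Another summit lay within 1 kb of 15 of them (57.7%), against 29.8% of all peaks, and 12 (46.2%) had at least 4 summits within 5 kb, itself included, against 4.58%. These 12 came from 3 genes: all 6 of IER2, all 4 of KLF6 and 2 of JUNB. A window around a start site was part of the rule, so these shares describe the genes and are not independent of how peaks were gathered. Joined where no more than 1 kb apart, the peaks formed 17 regions, of which 9 held 1 peak (52.9%, against 82.0% of regions in the list), 7 held 2 (41.2%, against 14.9%) and 1 held 3 (5.88%, against 3.18% with 3 or more). The region of 3 was at IER2, chr19:13262395-13264047. Widths were usual, with a median of 203 bp against 226 bp, and 4 of the 26 were wider than 500 bp (15.4%, against 6.82%): 2 at KLF6 and 1 each at FOSL2 and ATF3. The surroundings differed too, from 1 peak within 50 kb of DUSP1 and 2 each for FOS and EGR1 to 13 for IER2 and 7 for JUNB on gene-dense chromosome 19.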

How the data were processed

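The file used was the authors' deposited peak list for the MYC ChIP library. Per the submitters' processing notes the build was GRCh37 and the tools were MACS2 2.1.0, STAR 2.5.2a, bedtools, Picard 2.7.1 and SAMtools 1.3; their roles are not given in the sources used here. The deposited columns hold a score, a fold (a ratio of ChIP pileup to local background), a −log10 p, a −log10 q and the summit's distance from the peak start. The rule by which the authors filtered the list is not given in the sources used here. Start sites were given in GRCh37, and distances are 1-based summit minus start, signed by gene strand. Pileup and background were recovered by trying every whole pileup from 3 to 699 for the deposited fold and −log10 p, with p as the upper Poisson tail above that pileup; one matched within 0.001 for 100.0% of peaks. The procedure was also tested on simulated data. Library depth is otherwise unknown. Poisson intervals are exact (scipy 1.17.1, Python 3.11.15), and treat fragments as independent molecules, which reads without molecular identifiers need not be. Motifs were counted in RefSeq promoters. RefSeq gene order gave neighbours by name only. All 9 genes are named by rule. Genes and lists were chosen with earlier results of these data known, so every comparison with the whole list is descriptive and no p-value was computed here. Alternatives were the window, peak threshold, peak position, joining distance, ATF3 start, ranking and E-box letters.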

Additional observations from a re-analysis of the deposited data

How the results depend on the processing

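Of 27 alternatives, 19 were scored as leaving a value the same and 8 as moving it. The same meant within 1.5 times for a count, or inside the order-statistic 95% interval of the median fold (4.76 to 7.71). That interval takes the 26 peaks as independent although they came from 9 genes, so it served only as a descriptive range. The allowance for counts is wide: 7 or 6 genes with a peak, against 9, were still scored as the same. All 9 genes kept a peak with windows of 1, 2 and 10 kb, with any base of a peak counted, and with either ATF3 start alone. With the median −log10 p as threshold, 7 genes kept one (EGR1 and DUSP1 did not), and at the upper quartile 6 did (FOS also did not). The number of peaks was 12 within 1 kb, 11 at the median and 8 at the upper quartile of −log10 p, against 26, since fewer peaks were counted. The median fold was 9.85 with that median as threshold and 9.19 for the strongest peak of each gene, both above 5.77 by construction. Joining peaks within 2 kb gave 11 regions against 17. FOSL2 ranked 1 by −log10 p, fold and pileup. By summed pileup it ranked 2, after IER2, but the intervals of these 2 sums overlap. An E-box was in windows of 2 genes as CACGTG and 6 as CANNTG. The counts with 1 ATF3 start, 25 peaks each, were chosen after seeing the data. A check of promoter letters over 32 other early response genes was void, since 22 had a sequence. No paired analysis was possible because there was 1 ChIP and 1 input library and no test; no replicate could be left out. At the lowest background the smallest pileup among the listed peaks was 5 fragments. The authors' filter is not given, so no cutoff can be read from this. Weaker binding that was not listed could not be seen here.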
